A study of Schizosaccharomyces pombe with 18 samples.

Results

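Entry of rpl32-1 cells into early stationary phase was examined on the 6 arrays labelled rpl32-1, of 18 in the series: 3 of early stationary phase, taken at an OD600 of 10, and 3 of log phase, taken at an OD600 of 0.5. The members were all arrays whose title carried the RPL3201 name at either density. By the labels these Schizosaccharomyces pombe cells were of strain SP-Q01, carried a pESP3 vector overexpressing RPL3201 and grew in EMM2, a synthetic minimal medium. The study's methods name the plasmid pREP3X instead, and its strain table lists the host as a heterothallic h- strain that needs leucine. The same host was used for the other 12 arrays, 3 per phase from WT cells with the empty vector and 3 per phase from rpl32-2 cells, in which the vector carried RPL3202. The methods describe 3 independent biological replicates. Each array measured total RNA of a whole culture, so a lower share of one kind of cell and less of an RNA per cell cannot be told apart. Of the 10928 probe sets of the array, which also covers Saccharomyces cerevisiae, 2937 carried the name of an S. pombe gene and were tested. Their log2 values were quantile-normalized over these probe sets, so that every level is relative to the other S. pombe probe sets of its array.

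Fission yeast grows on glucose by division of G2 cells until the sugar or another nutrient runs out, then leaves the cycle. Glucose represses genes for other carbon sources through protein kinase A, and relief of this repression is a known part of the approach to stationary phase. The stress kinase Sty1 with its factor Atf1, and the growth regulator TORC1, which controls ribosome production and autophagy, are the other well studied arms of this transition. Rpl32 is a protein of the large ribosomal subunit that S. pombe encodes in a pair of genes, rpl32-1 and rpl32-2.

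The overexpressed gene itself did not separate these arrays from WT. Its probe set (rpl3201 in the annotation) read 14.25, 13.55 and 11.68 (log2) on the early stationary arrays 1, 2 and 3, against 14.18, 14.11 and 14.37 on the log phase arrays. The 6 WT arrays ran between 13.48 and 14.37, so that early stationary array 3 lay below every WT array. The level of 14.37 was rank 1 on log phase array 3, and quantile normalization gives every array the same top level. No array could therefore lie above the WT arrays in this probe set, whatever the amount of its RNA. The rpl32-2 probe set (rpl3202) read 13.55, 13.63 and 8.96 in early stationary phase, against 13.74, 13.73 and 13.77 in log phase, with WT arrays at 13.50 to 13.78. Early stationary array 3 therefore stood apart from WT in both paralogs. The arrays labelled rpl32-2 held similar values: in early stationary phase rpl3201 read 13.41, 12.16 and 12.19 there and rpl3202 13.46, 8.80 and 7.72, and in log phase rpl3202 read 13.79, 10.88 and 8.40. Whether the label of early stationary array 3 holds cannot be settled from these values. The position of the probes relative to the cloned reading frame is not known here, and probes beyond it could not read the plasmid's RNA. The groups are called by their labels for this reason, and rpl32-1 cells means cells of the arrays so labelled. The phase changes of the paralogs, −1.07 (SE 0.51, adjusted p 0.093) for rpl32-1 and −1.70 (SE 1.47, adjusted p 0.344) for rpl32-2, missed the threshold and were −0.31 and −0.15 without early stationary array 3. The reference genes showed no call: act1, the actin gene, changed by 0.27 (SE 0.15, adjusted p 0.131, with −0.14 as deposited and −0.05 after median centring), and nmt1, the thiamine-repressed gene whose promoter drives plasmids of the pREP family, by 0.13 (SE 0.09, adjusted p 0.263, −0.06 as deposited).

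The signal of the arrays was uneven. On log phase array 3, 18.7% of the S. pombe probe sets were at or below background, taken as the percentile 95 of the S. cerevisiae probe sets of the same array, against 0.919% to 3.61% on the other 5 arrays of rpl32-1 cells. The deposited distributions fell into 5 sets of arrays, and within rpl32-1 cells no set held both phases (early stationary arrays in sets 2, 5 and 5, log phase arrays in sets 1, 4 and 3), so the phase change could not be computed within a set. Quantile-normalized arrays correlated at 0.967 to 0.985 within early stationary phase, at 0.939 to 0.984 within log phase and at 0.813 to 0.876 between phases. On log phase array 3, 309 probe sets were at least 2-fold off the mean of the other 2 log phase arrays, compared with 62 on early stationary array 3 and 27 to 103 on the remaining arrays. The genes by which M cells are known were all above background in early stationary phase, where the M-factor genes mfm1 and mfm2 averaged 11.89 and 13.12. The P-cell receptor and pheromone genes map3 and map2 averaged 7.16 and 5.91 there, against 8.38 and 7.30 in log phase, and both were highest on log phase array 3 (9.01 and 8.59). The background of that array was 8.53 on this scale, against 5.84 and 5.40 on log phase arrays 1 and 2.

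**Figure D1:**
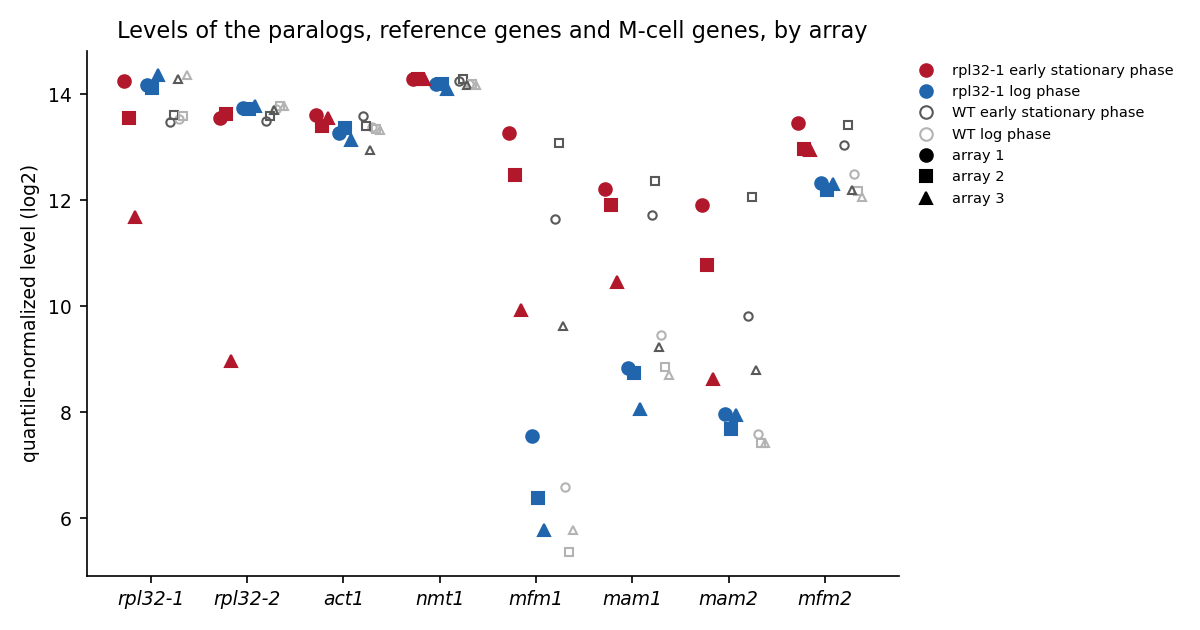
Quantile-normalized level (log2) of both rpl32 paralogs, act1, nmt1 and 4 M-cell genes on each array (symbols give the array number), for rpl32-1 cells in early stationary phase (red) and log phase (blue) and for WT cells in the same phases (open symbols). Early stationary array 3 of rpl32-1 cells is low in rpl32-1 (11.68), rpl32-2 (8.96), mfm1 (9.93) and mam2 (8.63) and close to the other arrays in act1 and nmt1. Early stationary array 3 of WT cells is also low in mfm1 (9.62).

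The question of the comparison was which genes differ between early stationary and log phase in rpl32-1 cells. In limma, 344 probe sets were called higher in early stationary phase (11.7% of 2937) and 325 lower (11.1%), a call being an adjusted p under 0.05 with a change of at least 2-fold. With no overlap between the 3 arrays of each phase were 811 that were higher (27.6%) and 1034 that were lower (35.2%), and 664 of the 669 called were among them. The higher side reached further: 96 probe sets rose and 33 fell by at least 4-fold, and 13 rose and 2 fell by at least 16-fold. The median change of all probe sets was −0.09 (log2), or 0.03 where the arrays were normalized over the probe sets of both species. As deposited, without quantile normalization, 81 were called higher and 34 lower, a split that leans more to the higher side, and 115 of the 669 calls were kept. When the set was added to the model as a fixed term, which draws on the WT and rpl32-2 arrays and is called the set-blocked fit here, 241 and 236 were called, and 402 of the 669 calls were kept.

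**Figure D2:**
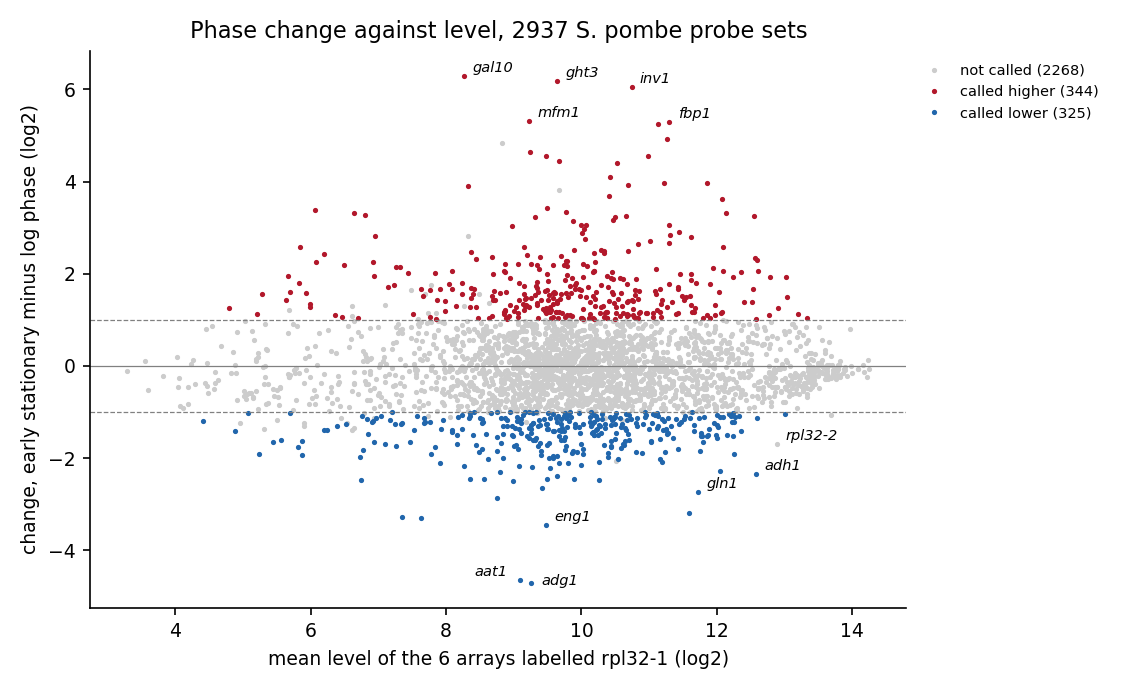
Change of each of 2937 probe sets between phases (early stationary minus log phase, log2) against its mean level on the 6 arrays of rpl32-1 cells (log2), with 344 called higher in red, 325 called lower in blue and the others in grey. Dashed lines mark 2-fold, and the changes of gal10, ght3 and inv1 exceed 6 (log2) on the higher side while adg1 and aat1 reach −4.70 and −4.65 on the lower.

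Genes of sugar use and uptake were among the largest rises, with gal10, ght3 and inv1 the top 3 by fitted change. gal10, which encodes UDP-glucose 4-epimerase of the galactose pathway, read 11.41, 11.17 and 11.66 in early stationary phase, against 4.80, 5.30 and 5.27 in log phase. None of the log phase arrays was above background, so that the rise was at least 28.3-fold (bright mean over the higher of background and the measured level), with a fitted change of 6.29 (SE 0.63, adjusted p 4.22e-06). Its neighbours in the pathway, gal1 (galactokinase) and gal7 (galactose-1-phosphate uridylyltransferase), named after their values were seen, rose by 3.69 (SE 0.42) and 2.89 (SE 0.40). inv1, the secreted invertase that splits sucrose, read 13.59, 13.75 and 13.97, against 6.34, 7.24 and 9.54 in log phase, a 66.8-fold rise (adjusted p 6.89e-06). fbp1, the glucose-repressed fructose-1,6-bisphosphatase of gluconeogenesis, read 13.92, 13.99 and 13.92, against 7.31, 9.54 and 9.12. The early stationary arrays lay within 0.5 of each other for gal10, gal1, inv1 and fbp1. The log phase arrays spread over 2 or more for inv1 and fbp1.

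The glycerol route moved with them. gld1, glycerol dehydrogenase, rose 23.4-fold (13.30, 13.03 and 13.45, against 7.42, 10.19 and 8.54 in log phase), and the dihydroxyacetone kinase genes dak2 and dak1, which act on its product, rose 37.7-fold and 4.92-fold. mae2, the malic enzyme, rose by 1.5 (SE 0.13). In all, 11 of the 15 probe sets listed for glycerol, gluconeogenesis and other sugars were called higher and 2 lower, with a median change of 1.52. Both lower calls were probe sets of mae1, the malate permease, whose 3 probe sets, chosen after their values were seen, disagreed: the bright one, at 12.47, 12.02 and 12.19 against 12.52, 12.56 and 12.34 in log phase, did not pass (−0.25, adjusted p 0.281).

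Of 8 ght hexose transporters, 4 were called higher and none lower, with a median of 1.16. ght3 read 12.50, 12.28 and 13.44 in early stationary phase, against 5.44, 6.15 and 8.06 in log phase, where 1 of 3 arrays was above background (6.19, SE 0.79, adjusted p 2.66e-05). ght4 rose by 2.2 (SE 0.54). Smaller rises came in the high-affinity glucose transporter gene ght5, at 13.62, 13.85 and 13.79 against 12.53, 12.44 and 12.92 (1.13, SE 0.17), and in ght2 (1.18, SE 0.25), whose call was lost in the set-blocked fit. ght1, chosen after its values were seen, was highest on early stationary array 3: it read 7.85, 6.91 and 10.15 there, against 6.58, 6.18 and 7.21, and was not called (1.65, SE 1.25, adjusted p 0.282).

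Glycolysis itself stayed close to the median, with 1 of 13 probe sets called higher and 1 lower (median −0.07). The exceptions were an enolase and the fermentation enzyme. eno102, the second enolase gene, read 13.65, 13.80 and 13.76, against 7.22, 10.51 and 8.68 in log phase (4.93, SE 1.03, adjusted p 0.0012). adh1, alcohol dehydrogenase, fell 5.06-fold, with 10.70, 11.66 and 11.88 in early stationary phase, against 13.79, 13.73 and 13.73. Both calls were lost in the set-blocked fit (3.59 and −1.2, adjusted p 0.0963 and 0.149). pgi1, glucose-6-phosphate isomerase, changed by 0.56 (SE 0.13) and the hexokinase gene hxk2 by 0.44 (SE 0.16, −0.01 as deposited), below 2-fold.

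In the citric acid cycle 4 of 11 probe sets were called higher and 1 lower, with a median of 0.66 (0.25 as deposited, 0.34 after median centring). These were early steps of the cycle: idh1 and idh2, the isocitrate dehydrogenase subunits, rose by 2.13 (SE 0.22) and 1.77 (SE 0.16), kgd2 of 2-oxoglutarate dehydrogenase by 1.92 (SE 0.19) and cit1, citrate synthase, by 1.25 (SE 0.17). idh1 read 13.14, 12.66 and 13.25, against 10.76, 10.66 and 11.23, with the phases well apart. For the respiratory chain and ATP synthase the picture was a small shift: 39 of 47 probe sets had a change above 0 and the median was 0.52, but 2 were called higher and 2 lower. The median was 0.24 as deposited and 0.33 after median centring, with none called in either. The ATP synthase gene atp4 read 12.77, 12.80 and 12.80 in early stationary phase, against 11.77, 11.83 and 11.94 (0.95, SE 0.09, adjusted p 3.72e-06), with groups well apart and a change just under 2-fold. atp1, at 0.96 (SE 0.14), and atp16, at 0.77 (SE 0.11), were alike, and atp7 passed at 1.01 (SE 0.12) but fell short of 2-fold without early stationary array 3 (0.91).

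**Figure D3:**
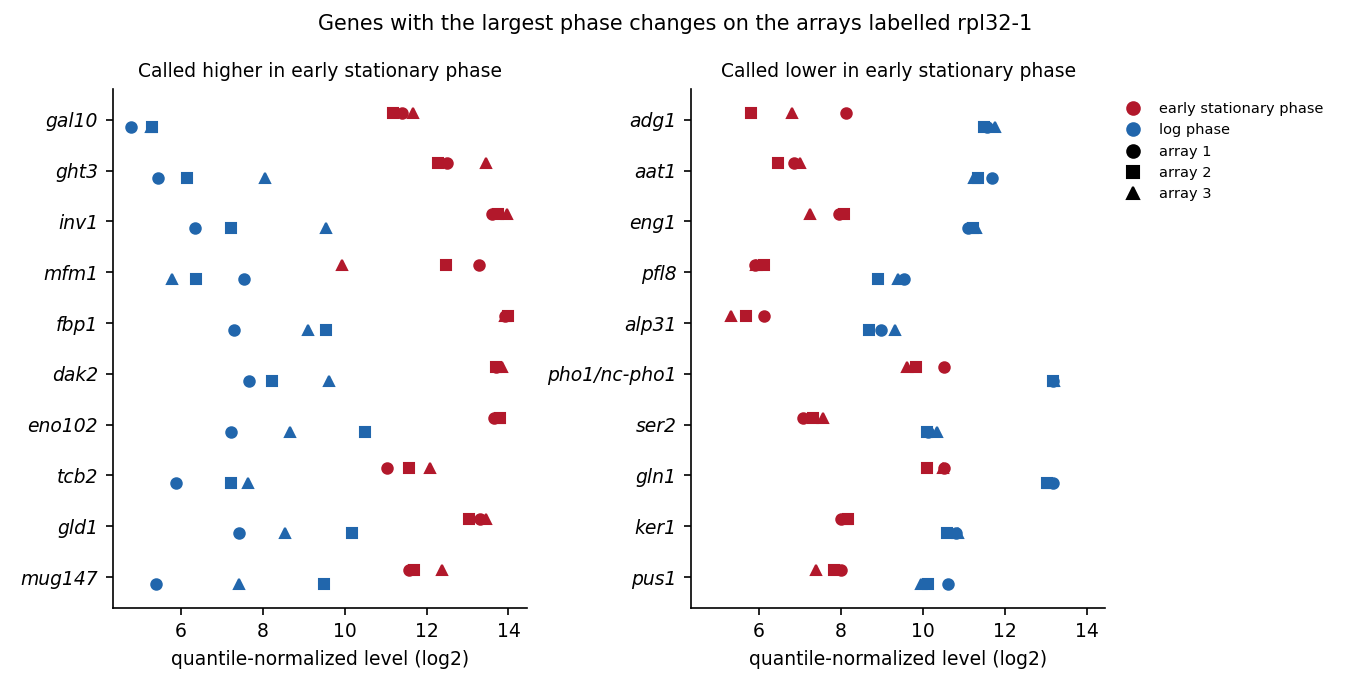
Quantile-normalized level (log2) on each array (symbols give the array number) of the 10 genes called higher and the 10 called lower with the largest changes, with early stationary phase in red above log phase in blue for each gene. The early stationary arrays of fbp1 lie at 13.92 to 13.99 while its log phase arrays spread from 7.31 to 9.54, and in aat1 the 3 arrays of each phase lie within 0.6 of each other.

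Stress genes rose as a group. Of 30 core stress probe sets 16 were called higher and none lower, with a median of 1.31 (1.18 as deposited). atf1, the transcription factor activated by the Sty1 kinase, read 11.32, 11.35 and 11.68, against 7.71, 8.33 and 8.87 in log phase (3.15, SE 0.27, adjusted p 1.59e-06). ish1, a nuclear envelope protein induced by stress, rose 15.6-fold (12.97, 13.04 and 13.62, against 8.25, 10.32 and 9.17). gst3, a glutathione S-transferase, rose by 2.66 (SE 0.25), and gpx1, glutathione peroxidase, by 1.93 (SE 0.25). In 15 of the 16 all early stationary arrays lay above all log phase arrays, and in the other they overlapped.

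Chaperones did not move as one. Of 24 probe sets 4 were called higher (16.7%, against 11.7% of all probe sets) and 1 lower (4.17%, against 11.1%). Of the 24, 16 had a change below 0, and the median was −0.24. hsp16, the small heat shock protein, read 14.09, 14.18 and 14.25, against 9.08, 12.68 and 11.02 in log phase, a rise of 9.49-fold from widely spread log phase arrays. Also called higher were psi1, a DNAJ partner of Hsp70 (2.11, SE 0.29), and hsf1, the heat shock factor (1.39, SE 0.24), which lost the call in the set-blocked fit. mas5, another DNAJ gene, went the other way, with 10.99, 10.52 and 10.05 in early stationary phase, against 12.47, 12.42 and 12.08 (−1.80, SE 0.20, adjusted p 8.99e-06).

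Autophagy genes gave the most uniform rise of all lists with over 10 members: 17 of 22 probe sets were called higher, none lower, and all 22 had a change above 0, with a median of 1.44. The changes were moderate, between 0.02 and 2.10. isp6, a vacuolar serine protease needed for autophagy, read 13.66, 13.52 and 13.74, against 11.40, 11.73 and 11.57 in log phase (2.07, SE 0.14, adjusted p 2.84e-07). psp3, another serine protease, rose by 2.07 (SE 0.23), atg17, a scaffold of autophagy initiation, by 2.03 (SE 0.17), and atg22, which exports amino acids from the vacuole, by 2.10 (SE 0.26). As deposited 3 of the 22 were called, with a median of 1.63. Of 46 genes of vacuolar sorting and the vacuolar ATPase 6 were called higher and none lower (median 0.19). The higher share of 13% was near the 11.7% of all probe sets. Among the calls were vps41 (1.6, SE 0.26), vps1302 (1.40, SE 0.18) and vps17 (1.09, SE 0.17).

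Genes that build ribosomes fell more than the genes of the ribosome, by a margin that depended on the scaling. In the list of ribosome biogenesis factors and RNA polymerase I and III subunits, 34 of 66 probe sets were called lower and 2 higher, 61 had a change below 0, and the median was −1.02. rrs1, a factor of large subunit assembly, read 9.26, 9.27 and 9.09 in early stationary phase, against 11.36, 11.20 and 11.33 (−2.09, SE 0.13, adjusted p 2.16e-07). The helicase genes dbp3 and has1 fell 5.54-fold and 3.45-fold, and rpc34, a subunit of RNA polymerase III, by 1.32 on the log2 scale (SE 0.13). Further genes of RNA synthesis and modification, which the list did not hold, stood among the 10 largest falls. ker1, a subunit of RNA polymerase I, read 7.99, 8.16 and 8.11, against 10.80, 10.58 and 10.85 (6.30-fold lower), and pus1, a pseudouridine synthase of tRNA, read 7.99, 7.84 and 7.38, against 10.60, 10.13 and 9.95 (5.62-fold lower). As deposited 3 of the 66 were called lower, with a median of −1.10.

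After quantile normalization the ribosomal proteins changed little. Of 79 probe sets of the large subunit 3 were called lower and none higher (median −0.28), and of 51 of the small subunit 1 was called lower (median −0.23). The shift was common: 76 of 79 and 45 of 51 had changes below 0, and 56 and 32 were lower with no overlap between the phases. Of all 2937 probe sets, 1611 had changes below 0, and 35.2% were lower with no overlap. Median centring, which gave medians of −0.60 for both lists, called 8 and 4. As deposited both medians were −0.69, with 1 and 0 called lower. rpp203, one of the stalk protein genes, was the clearest call, at 11.33, 11.70 and 11.16, against 12.94, 12.78 and 12.99 (−1.5, SE 0.16, adjusted p 4.85e-06). rps1401 fell 2.32-fold, and its paralog rps1402 changed by −0.78 (SE 0.12), near rpl1002 at −0.91 (SE 0.12) and rpl801 at −0.67 (SE 0.11). Probes for ribosomal protein paralogs can read each other's RNA, so that single members are uncertain. Translation factors were like the ribosomal proteins, with 2 of 25 called lower (median −0.28): tif213, a subunit of eIF2, at −1.10 (SE 0.21), and tif224, of eIF2B, at −1.06 (SE 0.20), both lost in the set-blocked fit, while tif211, another eIF2 subunit, changed by −0.88 (SE 0.14).

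Nitrogen and amino acid genes held the second largest fall. aat1, an amino acid transporter gene, read 6.84, 6.46 and 7.0 in early stationary phase, against 11.68, 11.34 and 11.25 in log phase, 25.2-fold lower (SE 0.43 on the log2 scale, adjusted p 2.57e-06). gln1, glutamine synthetase, which takes up ammonium into glutamine, read 10.51, 10.09 and 10.48, against 13.18, 13.03 and 13.07 (6.65-fold lower). aru1, an arginase, and amt3, an ammonium transporter, fell by 1.41 (SE 0.15) and 1.2 (SE 0.22), amt3 being dim in early stationary phase and changing by −0.29 where arrays were normalized over both species. Of 22 genes of amino acid and nitrogen uptake 7 were called lower and 2 higher (median −0.56).

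Amino acid synthesis genes fell more evenly, with 13 of 42 called lower, none higher and 39 with a change below 0 (median −0.72). ser2, the phosphoserine phosphatase of serine synthesis, had the largest fall: 7.07, 7.32 and 7.56, against 10.11, 10.10 and 10.35 in log phase (−2.87, SE 0.64, adjusted p 0.00204). Its call was lost in the set-blocked fit (−1.25, adjusted p 0.118). Arginine genes were prominent, with arg3, ornithine carbamoyltransferase, at −2.01 (SE 0.19) and arg1 at −1.51 (SE 0.16). met9, methylenetetrahydrofolate reductase, fell 3.90-fold and trp3, of tryptophan synthesis, 2.17-fold.

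Phosphate and thiamine genes showed a few clear falls. The probe set annotated as pho1, the secreted acid phosphatase, read 10.51, 9.84 and 9.61, against 13.17, 13.18 and 13.20 in log phase (9.16-fold lower, adjusted p 7.09e-05). The current reference gives its gene ID to nc-pho1, a non-coding RNA that overlaps pho1, and the probes cannot tell them apart here. pho4, the thiamine-repressible acid phosphatase, fell 3.77-fold. Among 10 thiamine genes 2 were called lower and 1 higher (20% and 10%, against 11.1% and 11.7% of all probe sets). thi4, of thiamine synthesis, read 11.38, 11.29 and 11.08, against 12.71, 12.81 and 12.70 (−1.49, SE 0.24), and thi5, a transcription factor gene, rose by 1.07 (SE 0.25), both lost in the set-blocked fit, whereas bsu1, a transporter of vitamin B6, changed by −0.48 (SE 0.14).

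Cell separation gave the largest fall of all. adg1, a cell surface glycoprotein gene, read 8.11, 5.81 and 6.80 in early stationary phase, against 11.57, 11.48 and 11.76 in log phase (26.0-fold lower, SE 0.93 on the log2 scale, adjusted p 7.99e-04). eng1, the glucanase that cuts the primary septum, read 7.94, 8.06 and 7.24, against 11.10, 11.21 and 11.29 (10.9-fold lower). The log phase arrays agreed within 0.3 in both genes. Neither call remained in the set-blocked fit (−2.09 and −1.72, adjusted p 0.213 and 0.198). sep1, a forkhead transcription factor gene, rose instead (1.6, SE 0.23), with 11.14, 11.33 and 11.29, against 9.61, 9.76 and 9.60. mbx1, a MADS box factor, changed by −0.69 (SE 0.14) and gas2, a glucan-modifying enzyme of the septum, by 0.76 (SE 0.12). Altogether 4 of 13 separation probe sets were called lower and 1 higher (median −0.60). In the set-blocked fit none was called lower and 1 higher, with a median of −0.11.

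Genes of the G1/S factor MBF split. Of 23 probe sets 6 were called lower and 1 higher, and the median, −0.14, turned to 0.13 as deposited, to 0.22 after median centring and to 0.15 over both species. rep2, an activating subunit, fell 3.83-fold, with 8.60, 8.23 and 8.49, against 10.57, 10.25 and 10.32. The S phase cyclin gene cig2 read 9.69, 7.85 and 8.0, against 9.93, 10.15 and 10.26 (−1.6, SE 0.42), with early stationary array 1 close to the log phase arrays. mik1, a kinase that restrains Cdc2, fell by 1.65 (SE 0.43) but was above background on 1 of 3 early stationary arrays. The calls of cig2 and mik1 were lost in the set-blocked fit. res2, a DNA-binding subunit, read 7.07, 6.89 and 7.45, against 5.54, 4.80 and 3.35, none of them above background in log phase, a rise of at least 1.46-fold (fitted 2.57, SE 0.63, adjusted p 0.0038). cdc10, another core subunit, chosen after its values were seen, changed by 0.43 (SE 0.21, adjusted p 0.102).

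DNA replication, with 4 of 39 called lower (10.3%, against 11.1% of all probe sets) and 1 higher, held falls in orc5 of the origin recognition complex (−1.27, SE 0.13) and in rfc2 of the clamp loader (−1.36, SE 0.18, lost in the set-blocked fit). rfc3 and mcm2, at −0.83 (SE 0.12) and −0.75 (SE 0.13), were below 2-fold. Of 53 repair and checkpoint probe sets 7 were called higher (13.2%) and 4 lower (7.55%), near the shares of all probe sets (11.7% and 11.1%). cds1, the replication checkpoint kinase, read 11.18, 11.06 and 11.38, against 9.04, 9.25 and 9.18 (4.14-fold higher). hus1, of the checkpoint clamp, read 5.52, 5.23 and 5.77, against 8.09, 7.63 and 8.21 (5.56-fold lower), and rhp18, a ubiquitin ligase of damage tolerance, fell 2.85-fold. On log phase array 3 hus1 was not above background.

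Mitotic genes showed few calls. In the septation initiation network, which triggers the septum, 11 of 15 probe sets had a change above 0 (median 0.57), none was called higher and 1 was called lower, while 5 were called higher and none lower after median centring and 2 and 1 over both species. The kinase genes cdc7 and sid1 changed by 0.93 (SE 0.19) and 0.86 (SE 0.15), and the scaffolds sid4 and ppc89 by 0.63 (SE 0.15) and 0.80 (SE 0.20). Log phase array 3 did not rise above its background in any of these 4 genes. Among 44 genes of mitosis and cytokinesis 4 were called higher (9.09%) and 2 lower (4.55%), below the shares of all probe sets (11.7% and 11.1%). The higher calls held cut9 of the anaphase promoting complex, at 9.75, 9.82 and 9.95, against 8.58, 8.31 and 8.65 (1.33, SE 0.13). cut2, securin, changed by 0.99 (SE 0.23), and the ring genes fim1 and rlc1 by 0.67 (SE 0.12) and 0.61 (SE 0.14). Kinetochore genes had 4 of 35 lower (11.4%, against 11.1% of all probe sets) and 1 higher (median −0.11). This lean turned to 2 lower and 3 higher after median centring (median 0.26) and to 1 and 3 over both species (0.29). sim4 fell 3.77-fold (6.62, 7.08 and 6.79, against 8.91, 8.69 and 8.64), mis15 by 1.11 (SE 0.20), and dam1, of the DASH complex, rose by 1.22 (SE 0.30). fta2, of the same Sim4 complex, read 6.07, 6.14 and 6.13, against 6.68, 6.66 and 5.50, so that log phase array 3 lay below and the others above the early stationary arrays (−0.17, SE 0.28, adjusted p 0.64, with 0.24 as deposited, 0.34 after median centring and 0.59 over both species). Its reading of 5.50 on log phase array 3 was not above background. Histones had a median of −0.04, which was −0.44 as deposited, −0.35 after median centring and 0.16 in the set-blocked fit, with hht3 and hht2 at 0.73 (SE 0.12) and 0.53 (SE 0.11), hhf2 at 0.36 (SE 0.12, −0.01 as deposited), and pht1, the H2A.Z gene, called lower (−1.25, SE 0.28), a call lost in the set-blocked fit.

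Mating genes rose, with some M-cell genes lower on early stationary array 3 than on the other arrays of the phase. Of 42 probe sets for mating and pheromone response 17 were called higher and 4 lower (median 0.99). In the set-blocked fit 6 were called higher and 1 lower, with a median of 0.59. mfm1, a gene of the M-factor pheromone, read 13.27, 12.47 and 9.93 in early stationary phase, against 7.55, 6.38 and 5.78 in log phase (5.32, SE 1.15, adjusted p 0.00159), and its other probe set 13.02, 12.45 and 9.79, against 7.62, 6.44 and 7.5 (4.56, SE 1.12). mam2, the receptor for P-factor, read 11.92, 10.78 and 8.63, against 7.97, 7.69 and 7.95 (2.58, SE 0.99, adjusted p 0.0412), and mam1, the M-factor exporter, 12.22, 11.91 and 10.45, against 8.83, 8.74 and 8.07 (2.98, SE 0.70). In each of these the phases did not overlap, and early stationary array 3 was the lowest of its phase. Log phase array 3 was not above background in any of them. Low mfm1 did not always go with low paralogs in the other strains. On early stationary array 3 of WT cells mfm1 read 9.62 (11.65 and 13.08 on the others), with rpl3201 at 14.29 and rpl3202 at 13.70. On early stationary array 3 of rpl32-2 cells mfm1 read 13.40 (8.87 and 9.65 on the others), with rpl3202 at 7.72. Without early stationary array 3 of rpl32-1 cells the changes were 6.31 and 5.56 for mfm1, 3.49 for mam2 and 3.53 for mam1. Both probe sets of mfm3, which had missed the threshold (4.83 and 3.81, adjusted p 0.065 and 0.0572), were then called. The M-factor genes share sequence, so that their probe sets may read each other. In the set-blocked fit none of the 7 M-cell probe sets was called (mfm1 3.22, adjusted p 0.15), and without log phase array 3 mam2 was not called (adjusted p 0.0742).

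Other genes of the mating list varied less between the early stationary arrays. mei2, the RNA-binding switch of meiosis, read 12.73, 11.74 and 11.69, against 9.33, 8.87 and 8.47 (8.96-fold higher, adjusted p 2.69e-05). On log phase array 3 mei2 was not above background. rst2, a zinc finger factor of the glucose response that also activates ste11, read 12.16, 12.19 and 12.54, against 10.77, 10.86 and 10.77 (1.5, SE 0.19), and byr2, a kinase of the pheromone cascade, rose by 1.28 (SE 0.18). rcd1, a gene needed for mating on nitrogen starvation, fell 3.02-fold, a call lost in the set-blocked fit. map3, the receptor of P cells, was called lower (−1.22, SE 0.44), but not without log phase array 3 (−0.92, adjusted p 0.129). mam3, the M-cell agglutinin, rose by 1.73 (lost in the set-blocked fit) and cbf12, a CSL factor of cell adhesion, by 2.01 (SE 0.29), while pfl8, a surface glycoprotein gene of the flocculin family, fell 9.84-fold, with 5.90, 6.11 and 5.92, against 9.54, 8.90 and 9.39. These were the calls among 13 adhesion genes, 15.4% higher and 7.69% lower, against 11.7% and 11.1% of all probe sets.

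What the genes named for meiosis showed as a group depended on the scaling. Of 91 mug genes, found as meiotically upregulated, 15 were called higher (16.5%) and 8 lower (8.79%), against 11.7% and 11.1% of all probe sets. The median of the mug genes, −0.09, was that of all probe sets. It was 0.13 as deposited and 0.51 over both species, where 22 were called higher and 3 lower. The 15 higher calls held large rises. mug147 read 11.58, 11.70 and 12.38, against 5.39, 9.50 and 7.42 (21.8-fold), mug143 12.29, 12.74 and 13.14, against 7.75, 8.10 and 9.10 (21.2-fold), mug191 12.40, 12.62 and 12.92, against 7.57, 9.84 and 8.77 (15.2-fold), and mug182 and mug35 rose 9.47-fold and 8.30-fold. Their order among the log phase arrays differed, array 2 being the highest in mug147 and mug191. In log phase mug147 was above background on 1 of 3 arrays, so that its fold is not a measured size. In the list of meiotic recombination and sporulation 5 of 61 were called higher (8.2%) and 7 lower (11.5%), with a median of −0.25. The shares of all probe sets were 11.7% and 11.1%. After median centring 10 and 4 were called (0.03), and over both species 9 and 2 (0.60). meu10, a spore wall gene, read 7.40, 7.58 and 8.31, against 4.03, 4.29 and 4.80, all below background in log phase (at least 2.25-fold, fitted 3.39, SE 0.26). mde4 and spo3 fell 3.26-fold and 2.76-fold, and rec12, the meiotic double-strand break enzyme, rose 2.08-fold, just above the threshold and below it without array 3 of either phase (0.98 and 0.87).

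The wtf genes, a family of meiotic drivers, had 12 of 26 probe sets called higher and none lower (median 0.98). The higher calls were 5 in the set-blocked fit (median 0.67) and 19 after median centring (median 1.46). wtf17 read 7.78, 8.50 and 8.59, against 5.06, 5.40 and 4.47, none above background in log phase (at least 3.25-fold, fitted 3.31, SE 0.32). wtf7 rose by 1.66 (SE 0.28). One probe set of wtf5 read 5.85, 5.89 and 6.43, against 4.13, 4.55 and 4.82 at or below background, which left no bound for a rise. The wtf genes are near copies of each other, and 5 of the 26 probe sets are annotated to several of them, so that a rise cannot be assigned to a member. Silencing genes had 7 of 33 called higher and 3 lower (median 0.30, with 0.05 in the set-blocked fit, 0.65 as deposited and 0.99 over both species), with rdp1, the RNA-dependent RNA polymerase, at 10.16, 10.55 and 10.34, against 8.82, 9.07 and 8.94 (1.41, SE 0.19), and clr1, ccq1 and bqt4 at 1.39 (SE 0.25), 1.34 (SE 0.15) and 1.28 (SE 0.14).

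Of the remaining lists, metal genes mostly rose where called, 8 of 28 higher and 1 lower (median 0.41). zrt1, the zinc transporter, read 14.01, 13.96 and 14.01, against 11.99, 12.03 and 12.15 (1.93, SE 0.22), ctr6, the vacuolar copper transporter, rose by 1.52 (SE 0.18), and php2, of the CCAAT-binding complex, by 1.47 (SE 0.24). Sterol and fatty acid synthesis fell, with 8 of 29 called lower and 1 higher (median −0.62): hmg1, the HMG-CoA reductase, read 10.47, 10.19 and 10.13, against 11.50, 11.39 and 11.28 (2.18-fold lower), mvd1 fell 2.38-fold and erg27 3.55-fold, the first 2 being lost in the set-blocked fit. Splicing genes had 12 of 76 lower (15.8%, against 11.1% of all probe sets) and 1 higher (median −0.34). Their leading member, prp43, a helicase that in budding yeast also serves ribosome assembly, read 8.79, 8.52 and 8.52, against 11.13, 10.77 and 10.27 (4.32-fold lower), and srp2 changed by −0.89 (SE 0.14). Proteasome and ubiquitin genes were near 0 (median 0.12, 2 of 35 higher), among them ufd1 (1.15, SE 0.15), with ubi4, the polyubiquitin gene, at 0.84 (SE 0.12). Wall enzymes split evenly, 4 of 28 higher and 4 lower (14.3% each, against 11.7% and 11.1% of all probe sets). Of these exg3, a glucanase, changed by 1.95 (SE 0.26) and agn2, another, by −1.28 (SE 0.25). Outside these lists lay a pair of the largest changes: tcb2, a tricalbin of membrane contact sites, rose 25.1-fold (11.04, 11.57 and 12.09, against 5.88, 7.22 and 7.65), and alp31, a tubulin folding cofactor, fell 9.70-fold (6.11, 5.68 and 5.32, against 8.98, 8.67 and 9.31). On log phase array 3 tcb2 was not above background.

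**Figure D4:**
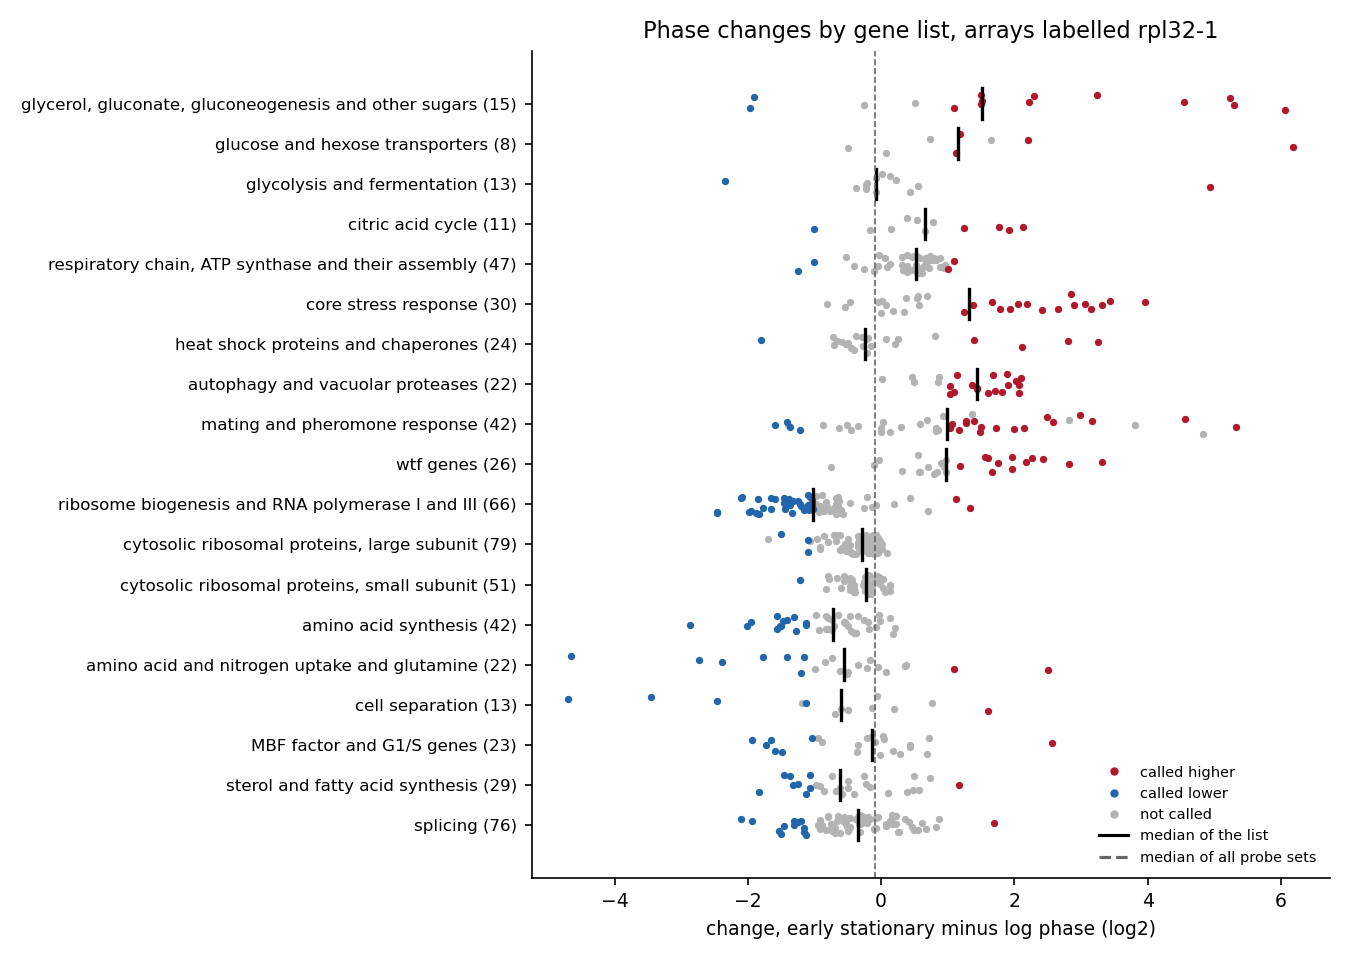
Change of each member between phases (early stationary minus log phase, log2, horizontal axis) in 19 gene lists, with the number of probe sets in brackets, the list's median as a black bar and the median of all probe sets (−0.09) dashed. Members called higher are red and those called lower blue. Autophagy genes (median 1.44) lie wholly above 0, ribosome biogenesis genes (median −1.02) mostly below −0.5, and ribosomal proteins close to the dashed line.

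Most of this programme was also seen in WT cells, which share no array with the comparison. Of the 669 calls in rpl32-1 cells, 436 (65.2%) were also called in WT in the same direction, which is 78.8% of the 553 WT calls (286 higher and 267 lower), and none was called in opposite directions. The changes correlated at r = 0.878 across the 2937 probe sets, which are not independent of each other. gal10 changed by 6.29 in rpl32-1 cells and 5.03 in WT cells, aat1 by −4.65 and −3.82, adg1 by −4.70 and −5.13, and the medians of core stress genes were 1.31 and 0.85. The test of the difference between the phase changes called none of the 2937 in limma (smallest adjusted p 0.701), with 195 at an unadjusted p under 0.05, of which 62 differed by at least 2-fold. The median half-width of the 95% interval of a difference was 0.643 (log2). This interval is not adjusted for the 2937 tests, and a call also needs a 2-fold difference, so that differences larger than 0.643 could be missed too. With array weights, which gave WT early stationary array 3 and log phase array 3 of rpl32-1 cells the low weights of 0.13 and 0.188, 65 were called, and the cause was not tested.

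Of the 4 genes nearest to a difference from WT none passed. laf2, a gene of a histone deacetylase complex, read 8.50, 8.45 and 8.53 in early stationary phase, against 10.36, 10.19 and 10.45 in log phase, a change of −1.84 with −0.74 in WT (difference −1.09, SE 0.24, unadjusted p 3.98e-04). cid12, of the RNA-dependent RNA polymerase complex, read 6.35, 6.76 and 6.91, against 5.52, 5.35 and 5.09, below background on all log phase arrays (at least 1.06-fold higher, fitted change 1.35 with −0.45 in WT), so that its difference is not a measured size. mvp1, a sorting nexin gene with the smallest adjusted p of the whole comparison (7.38e-08), read 10.32, 10.45 and 10.71, against 7.47, 7.70 and 7.23, a change of 3.03 with 2.03 in WT (difference 1.0, SE 0.24). On log phase array 3 of rpl32-1 cells mvp1 was not above background. In WT it read 10.06, 10.26 and 10.49 in early stationary phase, against 8.13, 8.37 and 8.23, so that the log phase arrays of the strains lay further apart than those of early stationary phase. tsc1, which restrains TORC1, changed by 1.28 with 0.28 in WT (difference 1.0, SE 0.25). These differences all had an adjusted p of 0.701.

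In rpl32-2 cells the phase changes had a smaller spread, with an SD over probe sets of 0.999 in rpl32-1 cells and 0.746 in rpl32-2 cells. Of the 669 calls, 289 (43.2%) were also called in rpl32-2 cells in the same direction, 83.3% of the 347 calls there, and none in opposite directions (r = 0.873 across probe sets). gln1 changed by −2.73 in rpl32-1 cells and −1.63 in rpl32-2 cells. adg1 changed by −4.70 in rpl32-1 cells and −1.56 in rpl32-2 cells, where it read 11.94, 11.42 and 6.91 in early stationary phase, against 11.70, 11.67 and 11.58 in log phase, so that the fall there was on array 3 alone. The test of the difference again called none (smallest adjusted p 0.17), with 354 at an unadjusted p under 0.05 and 104 of them differing by at least 2-fold. Without that same array, early stationary array 3 of rpl32-2 cells, 153 were called. With array weights, which gave that array 0.164 and log phase array 3 of rpl32-1 cells 0.188, 289 were called. The cause was not tested. Nearest to the threshold were wtf17, whose rise of at least 3.25-fold is only a bound, so that its difference (fitted changes 3.31 and 0.99) is not a measured size, mvp1 (difference 1.25, SE 0.24), snz1, of vitamin B6 synthesis (−1.04 with −0.35, difference −0.69, SE 0.14), and mug24 (−1.02 with 0.90, difference −1.92, SE 0.44), the last near background and not called in rpl32-1 cells without array 3 of either phase (−0.79 and −0.83).

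**Figure D5:**
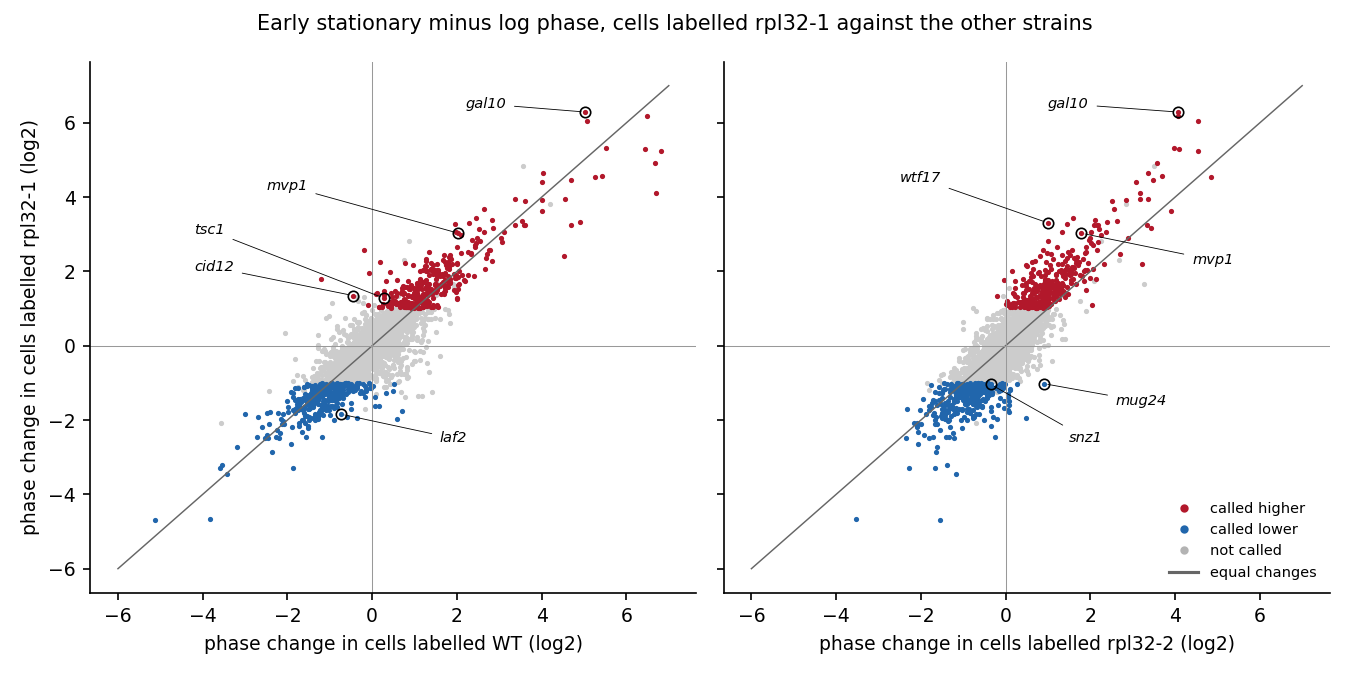
Phase change (early stationary minus log phase, log2) in rpl32-1 cells on the vertical axis against the same change in WT cells (left) and in rpl32-2 cells (right), for 2937 probe sets coloured by their call in rpl32-1 cells, with the line of equal changes. Circled are gal10 and the genes nearest to a difference, and the changes correlate at r = 0.878 with WT and r = 0.873 with rpl32-2 cells.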

How the data were processed

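RNA of 18 cultures was extracted with Trizol and hybridised to Affymetrix yeast arrays. Expression is in log2 units, deposited by the authors after RMA summarisation, with Partek named in the submitters' processing notes. No other values were used. Annotation given with the arrays named 5538 probe sets, 2937 of S. pombe (2917 with 1 gene, 20 with several, 116 symbols updated from the reference). The 2601 of S. cerevisiae, the 213 controls and the unnamed ones were not tested.

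Distributions differed between arrays as deposited. Clustering the sorted values by single linkage, cut at a mean difference of 0.2 (log2), put the arrays into 5 sets (at most 0.175 within and at least 0.274 between sets). Values were therefore quantile-normalized over the S. pombe probe sets and fitted in R 4.3.3 with limma 3.58.1 and statmod 1.5.0, using 6 group means, 12 residual degrees of freedom and a prior of 2.77. Two-sided p values were adjusted (Benjamini-Hochberg) over 2937 probe sets, and calls need an adjusted p under 0.05 and 2-fold. SE is that of the change or difference. The precision rests on 3 arrays per group. Where a probe set was not above background on any array of a phase, a rise or fall is given as a bound. The fit was tested on simulated data. No column lacked a sample (0).

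Members, the 38 gene lists, tests and alternatives were chosen with earlier results of these data known. Named genes are the paralogs, act1, nmt1 and fta2, the 10 called higher and 10 lower with the largest change and no overlap between phases, as many as 4 per list with the smallest adjusted p, up to 4 nearest to each difference, and the mating type markers. Genes beyond this rule are marked as such. Tables used Python 3.11.15 with pandas 2.3.3 and numpy 2.4.6, figures matplotlib 3.10.9.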

Additional observations from a re-analysis of the deposited data

How the results depend on the processing

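Counts of calls, 344 higher and 325 lower, were 81 and 34 as deposited (the cause was not tested), and 468 and 515 with treat against 1.2-fold, which sets no 2-fold limit. With the other scalings, variance models, blocks, the methods' t-test, a filter on low values and each of the 18 arrays left out in turn, they stayed between 241 and 407 and between 236 and 333. Leaving out 1 array of rpl32-1 cells gave 332 to 361 higher and 297 to 333 lower, and leaving out array 3 of both phases, chosen after seeing the data, 323 and 288. The array set as a random block, also added later, gave 298 and 293. The calls of a difference from WT, 0, became 65 with array weights, and those of a difference from rpl32-2 became 289 with array weights and ranged from 0 to 153 over the arrays left out, the 153 being without early stationary array 3 of rpl32-2 cells. The cause was not tested. They were 0 in the other alternatives run. The array weights did not fully converge.

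The fit did not pair arrays by replicate number. Deviations of same-numbered arrays correlated at 0.192, 0.0243 and 0.214, which alone does not show whether they are paired. With a replicate block 345 and 324 were called. Directions turned for act1 (−0.14 as deposited, −0.05 after median centring), nmt1 (−0.06), hxk2 and hhf2 (−0.01 each) as deposited, mug24 (0.14 over both species) and fta2 (0.24 as deposited, 0.34 after median centring, 0.59 over both species, and from −0.57 to 0.04 with 1 array of rpl32-1 cells left out, above 0 without log phase array 1 or 2), none of them called except mug24. With the array set as a fixed term, 34 of the 128 named probe sets called were lost, and as deposited 78. Weak signal on log phase array 3 limits genes near background.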
